A study of Mus musculus with 9 samples.

Results

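The messenger RNAs of the oxidative phosphorylation (OXPHOS) subunits were followed in explants of mouse retina kept with or without 2-deoxy-D-glucose (2-DG), a glucose analog that is phosphorylated but not metabolised further and so inhibits glycolysis. Members were taken by gene symbol among the protein-coding genes of the count table. They were the mitochondrially encoded mt-Nd, mt-Co, mt-Atp and mt-Cytb genes, the Nduf subunits of series a, b, c, s and v without assembly factors, Sdha to Sdhd, the Uqcr genes and Cyc1, the Cox4 to Cox8 subunits and the Atp5 genes. The rule found 100 members among 55487 genes, of which 13 are encoded in mitochondrial DNA and 87 in the nucleus. Complex I had 7 mitochondrial and 38 nuclear members, complex II 4 nuclear members, complex III 1 and 9, complex IV 3 and 18, and complex V 2 and 18. Retinas were dissected from C57BL/6J mice, wild-type and 28 days old, with the sclera and pigment epithelium removed, and both groups stood for 48 h in Neurobasal-A medium holding 5 mM glucose. The 4 2-DG libraries also received 20 mM 2-DG, and the 5 control libraries did not. Both groups then spent 1 h in Krebs' Ringer medium before total RNA was taken. The labels call the libraries biological replicates of 1 batch without saying whether they came from separate animals, so p-values measure the spread between these libraries. An explant has no circulation and no pigment epithelium, which limits it as a model of the retina in the eye.

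Complexes I to IV pass electrons from NADH and succinate to oxygen, all but complex II pump protons out of the mitochondrial matrix, and complex V (ATP synthase) lets the protons flow back to make ATP. Mitochondrial DNA supplies core membrane subunits of complexes I, III, IV and V, transcribed as long polycistronic RNAs that are cut into single messenger RNAs, whereas complex II is entirely nuclear. Photoreceptors hold most mitochondria of the retina in their inner segments and yet turn much glucose into lactate, so the comparison asks how the messenger RNAs of the respiratory machinery stood after glycolysis had been inhibited.

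Libraries held 11318087 to 51802230 estimated counts. The tissue label was checked against its markers, and 8 rod markers summed to 4765 to 41429.7 CPM in control and 7209.5 to 15715 CPM in 2-DG libraries. No marker sum of rods or of 10 other cell types had groups that did not overlap. Of the 9 libraries, 3, namely control replicates 2 and 5 and 2-DG replicate 4, stood apart in several measures that touch the results below. In these 3 libraries the rod markers summed to 14424 to 41429.7 CPM, against 4765 to 9435 CPM in the other 6, and 6 bipolar cell markers to 155 to 450.0 CPM, against 951 to 3012 CPM. Spearman's rho of a gene's log2 deviation from its mean over libraries with transcript length, over 16015 protein-coding genes, was −0.30 to −0.26 in these 3 and −0.021 to 0.32 in the other 6. 2-DG replicate 3 alone held pigment epithelium markers at 164 CPM, where the other 8 libraries lay between 1.44 and 19.6 CPM. In bulk RNA, fewer cells of a type and less RNA per cell cannot be told apart.

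No OXPHOS subunit passed the threshold between 2-DG and control explants. Of the 96 members with enough counts to be tested, 0 had an adjusted p under 0.05 with edgeR's quasi-likelihood test, as did 0 of all 21049 genes tested (0% called). At an unadjusted p under 0.05 there were 3 members, all with higher levels in 2-DG explants, against 7.25% of all genes tested (2.42% higher and 4.83% lower). They were Ndufa9 of complex I, Uqcrb of complex III and Cox6a2 of complex IV. As a share of 96 members this is below the percentage of all genes in either direction and close to that of the genes with higher levels. Most nuclear members had small positive log2 fold changes, since 68 of 83 tested were above 0 (42 of 83 without 2-DG replicate 4), where 49.2% of all genes tested were, and their median was 0.14 against −0.0089 for all genes. The mitochondrial members were split, with 8 above and 5 below 0 and a median of 0.044. The DESeq2 Wald test also called 0 members, in a test that called 257 of 37313 genes. Limma-voom with sample quality weights called Ndufa9 and Cox6a2, in a test that called 5.81% of all genes. It had 16 members at an unadjusted p under 0.05 against 26% of all genes.

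**Figure D1:**
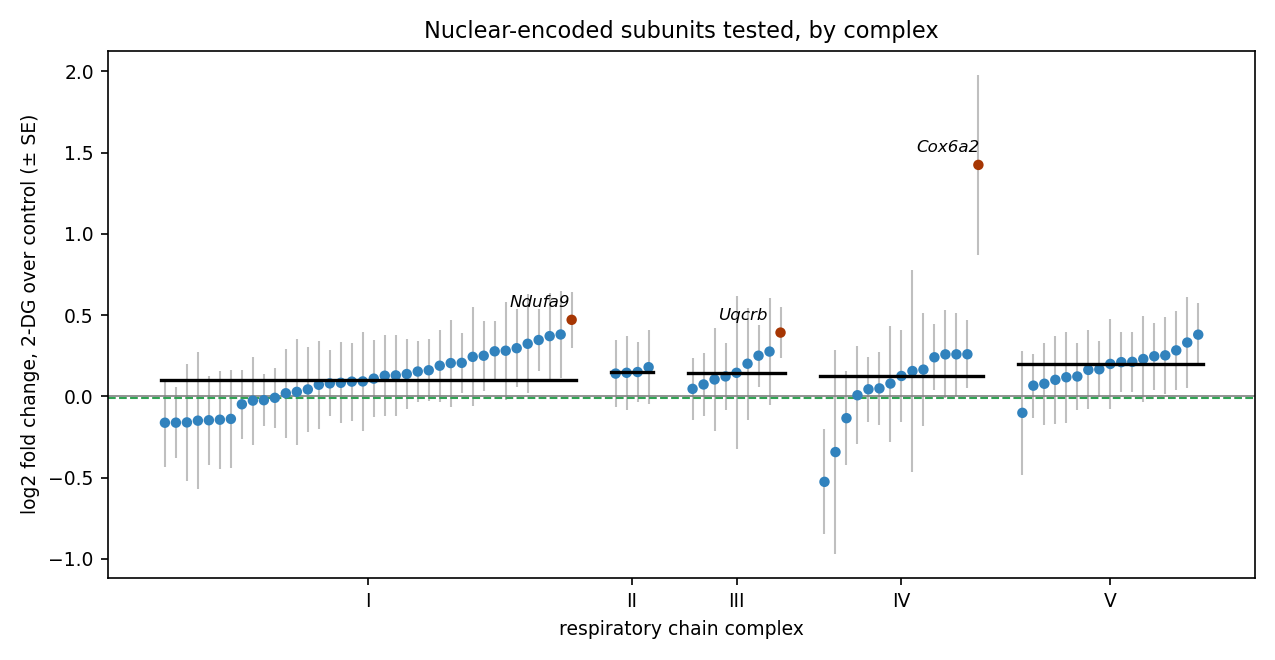
Log2 fold change of each tested nuclear-encoded subunit, 2-DG over control, with its standard error, ordered within complexes I to V; black lines mark the median of each complex, the dashed line the median of all genes tested, and brown points the 3 members with an unadjusted p under 0.05. Medians lay between 0.10 in complex I and 0.20 in complex V.

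The 13 mitochondrially encoded members showed no shift between the groups that exceeded the spread between libraries. As a percent of all counts they took 3.46, 9.96, 3.57, 6.21 and 9.24 in the control libraries and 3.21, 3.41, 5.74 and 12.7 in the 2-DG libraries. The 2-DG group held both the lowest and the highest library, and the range of the controls lay within that of the 2-DG libraries (6.49 ± 3.06% in control, SD, n = 5, and 6.26 ± 4.43% in 2-DG explants, SD, n = 4). Counting error was small beside this, as the 95% Wilson interval of 3.45 to 3.46% in control replicate 1 shows. Such intervals and floors cover counting error only. The 87 nuclear members together took 0.578 to 0.790% of counts. The ratio of mitochondrial to nuclear OXPHOS counts was 4.65 in 2-DG replicate 1 and 18.2 in 2-DG replicate 4. The 3 libraries with the highest mitochondrial share were the same 3 that stood apart in rod markers, bipolar markers and transcript length, and the part of these measures in the share was not tested. The 2 mitochondrial ribosomal RNAs, which are no members, followed the same order at the top, with 0.732, 0.730 and 0.911% of counts in those 3 libraries and 0.178 to 0.468% in the other 6.

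**Figure D2:**
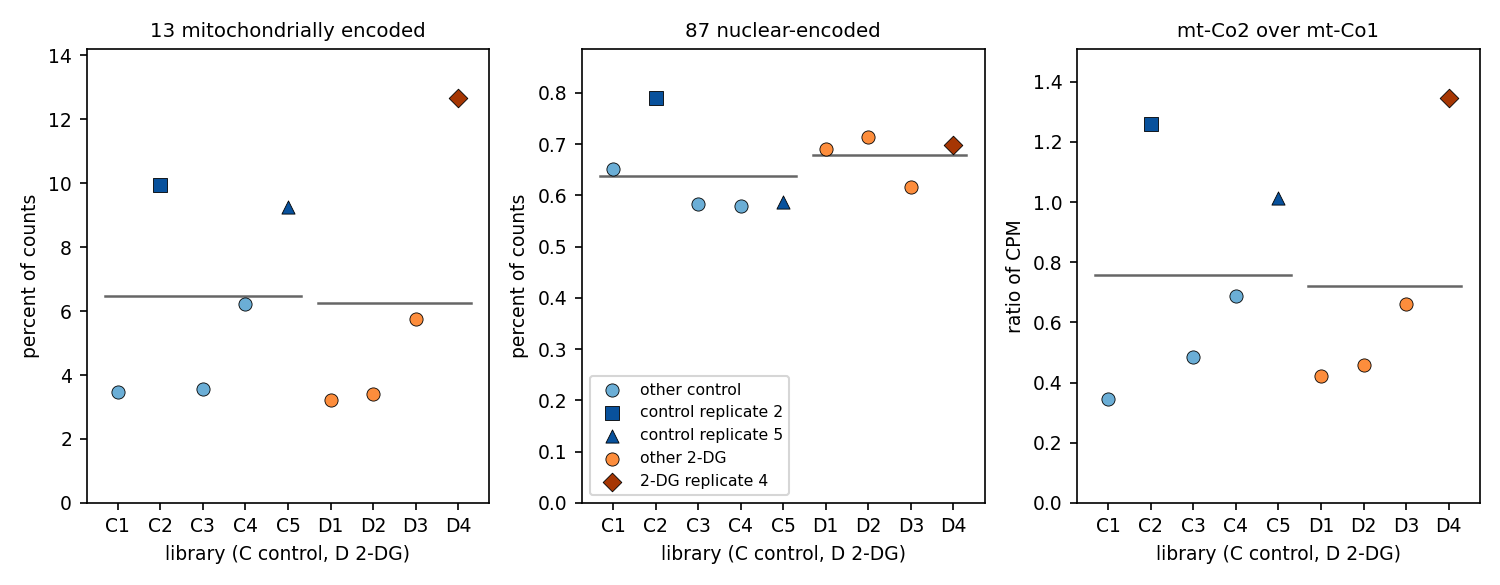
Percent of estimated counts in the 13 mitochondrially encoded and the 87 nuclear-encoded subunit genes, and the ratio of mt-Co2 to mt-Co1 CPM, in each library (C1 to C5 control, D1 to D4 2-DG); grey lines are group means. The mitochondrial share reached 12.7% in 2-DG replicate 4 and lay at 3.21% in 2-DG replicate 1, and the ratio of the 2 complex IV messages was highest in the same 3 libraries.

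The 13 messages did not vary alike. The highest library held 8.31 times the CPM of the lowest for mt-Co2, 8.28 times for mt-Co3, 8.05 times for mt-Nd3 and 7.70 times for mt-Nd1, but 1.77 times for mt-Nd5, 2.42 times for mt-Nd6 and 2.53 times for mt-Co1. The longest annotated genes, mt-Nd5 (1824 bases), mt-Co1 (1545 bases) and mt-Nd4 (1378 bases), lay at 1.77, 2.53 and 4.08 times. The shorter mt-Co3 (784 bases), mt-Co2 (684 bases) and mt-Nd3 (348 bases) lay at 8.05 times or more. Also short, mt-Nd6 (519 bases), mt-Nd4l (297 bases) and mt-Atp8 (204 bases) lay lower, at 2.42, 2.50 and 4.86 times. As mt-Nd4l and mt-Atp8 overlap their neighbours, their annotated lengths may not be those of their messages. The part of length in the order was not tested. The ratio of mt-Co2 to mt-Co1, which are neighbours on the same strand and belong to the same complex, was 0.345, 1.26, 0.485, 0.688 and 1.01 in the control libraries and 0.423, 0.457, 0.661 and 1.35 in the 2-DG libraries. That of mt-Nd1 to mt-Nd5 was 0.737, 4.17, 0.914, 1.68 and 2.86 in the control libraries and 0.836, 0.887, 1.67 and 3.64 in the 2-DG libraries. Both ratios were highest in control replicates 2 and 5 and 2-DG replicate 4, and the groups overlapped in both. Of the levels per kilobase of transcript, averaged over the 9 libraries, mt-Co2 had the highest with 15201 CPM per kb and mt-Nd6 the lowest with 37.2 CPM per kb.

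**Figure D3:**
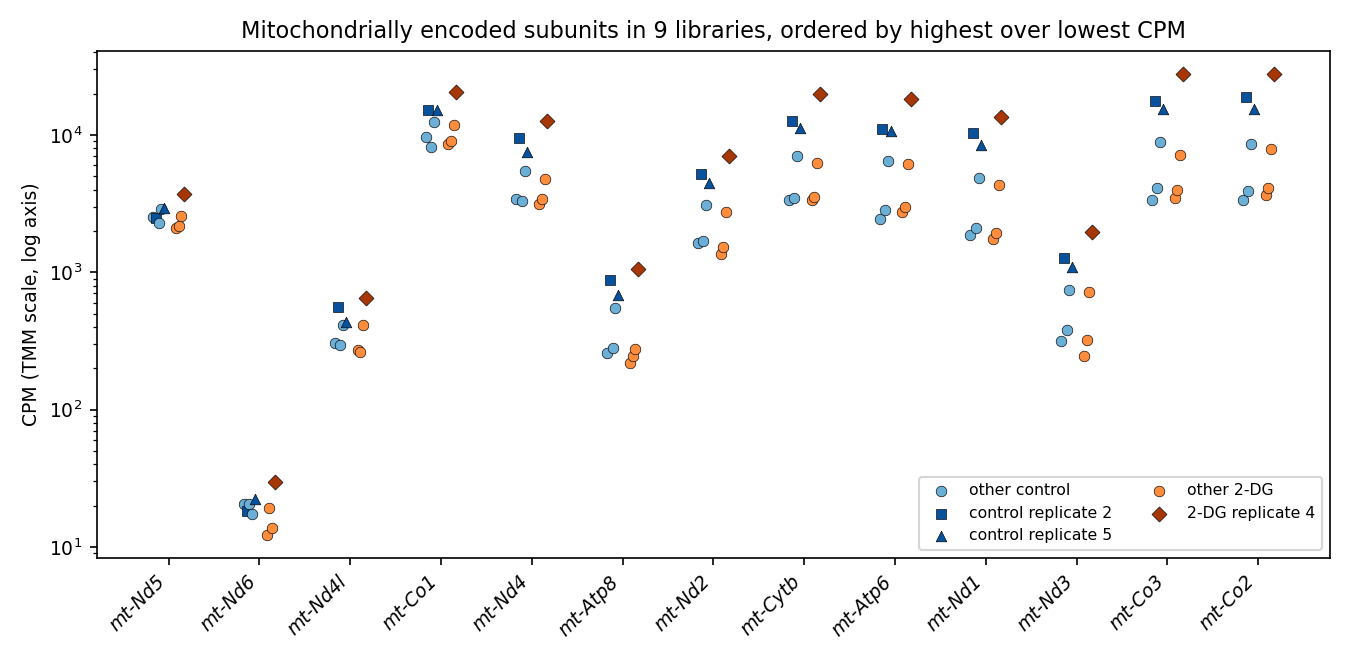
CPM of the 13 mitochondrially encoded subunits on a log axis, 1 point per library, with genes ordered from the smallest to the largest ratio of highest to lowest library. Control replicates 2 and 5 and 2-DG replicate 4 are the 3 highest libraries in every gene but mt-Nd5 and mt-Nd6, with ratios that reach their highest in mt-Co2 (8.31 times), whereas the points of mt-Nd5 stay within 1.77 times.

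mt-Co1 (ENSMUSG00000064351, chromosome M, 5328 to 6872, plus strand), the catalytic subunit of complex IV, stood at 9671, 15074, 8118, 12486 and 15268 CPM in the control libraries and 8585, 8953, 11878 and 20569.9 CPM in the 2-DG libraries (log2 fold change 0.044, SE 0.43, edgeR adjusted p = 0.987). Its highest library was 2-DG replicate 4 and its lowest control replicate 3, with overlapping groups. mt-Cytb (ENSMUSG00000064370, chromosome M, 14145 to 15288, plus strand), the only mitochondrial subunit of complex III, stood at 3330.5, 12588, 3475, 7035 and 11271 CPM in the control libraries and 3342, 3528, 6261 and 19914 CPM in the 2-DG libraries (log2 fold change 0.13, SE 0.66, edgeR adjusted p = 0.970). Of its 2-DG values 3 lay within the control range and 1 above all controls. mt-Nd4 (ENSMUSG00000064363, chromosome M, 10167 to 11544, plus strand), a proton-pumping subunit of complex I, stood at 3385, 9534, 3275, 5417 and 7460.3 CPM in the control libraries and 3113, 3394, 4813 and 12705 CPM in the 2-DG libraries (log2 fold change 0.047, SE 0.54, edgeR adjusted p = 0.989). Here 2-DG replicate 1 lay below and 2-DG replicate 4 above every control library. mt-Nd6 (ENSMUSG00000064368, chromosome M, 13552 to 14070, minus strand), the only member transcribed from the other strand of mitochondrial DNA, stood at 20.6, 18.2, 20.4, 17.4 and 22.4 CPM in the control libraries and 12.3, 19.1, 13.8 and 29.8 CPM in the 2-DG libraries (log2 fold change −0.076, SE 0.28, edgeR adjusted p = 0.960). In mt-Nd6 control replicate 2 was not among the high libraries, and 2-DG replicates 1 and 3 lay below all controls. The genes mt-Nd5 and mt-Nd6 overlap by their ends on opposite strands, and whether the counting used strand is not given in the sources used here.

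mt-Atp8 (ENSMUSG00000064356, chromosome M, 7766 to 7969, plus strand), a small membrane subunit of ATP synthase, had the smallest unadjusted p of the 13. It stood at 259, 879, 279, 546 and 686 CPM in the control libraries and 218, 247, 277 and 1063 CPM in the 2-DG libraries (log2 fold change −0.23, SE 0.55, edgeR unadjusted p = 0.684, adjusted p = 0.935). The 4 lowest of its 9 values were 2-DG replicates 1, 2 and 3 and control replicate 1, whereas 2-DG replicate 4 lay above every control. Without 2-DG replicate 4 the log2 fold change was −1.10 (edgeR unadjusted p = 0.0286, adjusted p = 0.343), in a fit with 12.9% of all genes at an unadjusted p under 0.05. mt-Atp8 shares its message with mt-Atp6, which forms the proton channel of the enzyme, and the reading frames overlap, so reads in the shared bases cannot be given to either gene with certainty. The shared stretches are shown because they set how far the counts of these neighbours are separate. The overlap of mt-Atp8 and mt-Atp6 lies at chrM:7927-7969 on the plus strand of GRCm38 (GENCODE M21), 43 bases, and the end of mt-Nd4l is shown with its 7 bases shared with mt-Nd4 (chrM:10167-10173, plus strand) in capitals.
mt-Atp8 and mt-Atp6: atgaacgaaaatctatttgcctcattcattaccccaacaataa
mt-Nd4l into mt-Nd4: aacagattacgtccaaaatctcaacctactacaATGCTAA
mt-Atp6 itself stood at 2447, 11084, 2849.5, 6444 and 10620.3 CPM in the control libraries and 2742, 2982, 6143 and 18127 CPM in the 2-DG libraries (log2 fold change 0.16, SE 0.69, edgeR adjusted p = 0.964). In 2-DG replicate 3 mt-Atp6 was near control replicate 4 whereas mt-Atp8 was near control replicate 3, and mt-Atp8 relative to mt-Atp6 was lowest in that library. The median log2 fold change of the 13 mitochondrial members, 0.044, rested on single libraries. It was −0.77 without 2-DG replicate 4, with all 13 below 0, and 0.30 without control replicate 2. It was −0.070 with library size as the only scaling and −0.062 with upper-quartile scaling, so no direction can be given. Over all genes tested the medians of these fits were −0.065 and −0.089.

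Complex I, the NADH dehydrogenase through which most electrons enter the chain, is by far the largest of the complexes by number of subunits. Of its 38 nuclear members 27 had a log2 fold change above 0 and 11 below, with a range of −0.16 to 0.47 and a median of 0.10. By their symbols, Ndufa4 (0.083), now counted with complex IV, and its paralog Ndufa4l2 (−0.15) were kept among these 38 and not in complex IV. No difference between complexes was tested, and the order of their medians changed with the libraries left out. The median of complex I was −0.036 without 2-DG replicate 4, 0.21 without 2-DG replicate 3, 0.25 without control replicate 2, 0.038 without control replicate 3 and 0.036 without control replicate 4. Ndufa9 (ENSMUSG00000000399, chromosome 6, 126821721 to 126849136, minus strand), a supernumerary subunit that holds the junction of the membrane and peripheral arms, had the smallest p of all members. It stood at 63.0, 43.7, 60.7, 52.7 and 57.8 CPM in the control libraries and 78.8, 78.9, 73.8 and 76.8 CPM in the 2-DG libraries. All 4 2-DG libraries lay above all 5 controls, and control replicate 2 was the lowest. The means were 55.6 ± 7.69 CPM (SD, n = 5) in control and 77.1 ± 2.40 CPM (SD, n = 4) in 2-DG explants (log2 fold change 0.47, SE 0.17, edgeR unadjusted p = 0.0206, adjusted p = 0.616). Groups that did not overlap with higher 2-DG values occurred in 2 members, Ndufa9 and Uqcrb, of 96, and in 1.52% of all genes tested, and with lower 2-DG values in 0 members and 1.41% of all genes (2.93% in either direction).

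Ndufs1, the largest iron-sulfur subunit, stood at 98.0, 99.4, 108, 89.4 and 72.3 CPM in the control libraries and 107, 118, 103 and 87.03 CPM in the 2-DG libraries (log2 fold change 0.15, SE 0.19, edgeR adjusted p = 0.869). Control replicate 5 and 2-DG replicate 4 were the lowest of their groups here, the reverse of their place among the mitochondrial messages. Ndufv1, which binds NADH and the flavin, stood at 94.5, 144, 93.7, 88.2 and 90.2 CPM in the control libraries and 107, 109, 98.8 and 117 CPM in the 2-DG libraries (log2 fold change 0.080, SE 0.20, edgeR adjusted p = 0.939). Control replicate 2 was the highest of all 9 and the other 4 controls lay below every 2-DG library. Ndufb4 cannot be read on its own, because a processed pseudogene of near-identical sequence, Ndufb4c, held 70.6% of the counts of the pair. The sum of both was 28.6 ± 6.06 CPM (SD, n = 5) in control and 27.9 ± 6.82 CPM (SD, n = 4) in 2-DG explants.

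Complex II, succinate dehydrogenase, links the tricarboxylic acid cycle to the chain and has no mitochondrially encoded subunit. All 4 of its members had log2 fold changes above 0, within 0.14 to 0.18, and all were smaller than their standard errors of 0.19 to 0.23. Their median of 0.15 was 0.064 without 2-DG replicate 4 and 0.26 without 2-DG replicate 3, and summed transcript counts moved Sdhc from 0.14 to 0.32. The flavin subunit Sdha stood at 334, 314, 278, 245 and 198 CPM in the control libraries and 306, 352, 317 and 236 CPM in the 2-DG libraries (log2 fold change 0.14, SE 0.23, edgeR adjusted p = 0.897), with both extremes of the 9 values at control replicate 5 and 2-DG replicate 2. The iron-sulfur subunit Sdhb stood at 53.1, 56.3, 43.7, 52.8 and 57.7 CPM in the control libraries and 48.8, 55.2, 46.5 and 88.3 CPM in the 2-DG libraries (log2 fold change 0.18, SE 0.23, edgeR adjusted p = 0.871), and of the 2-DG libraries replicate 4 lay above the controls. Of the membrane anchors, Sdhc stood at 75.8, 79.1, 87.2, 75.8 and 71.0 CPM in the control libraries and 92.9, 104, 56.8 and 89.4 CPM in the 2-DG libraries (log2 fold change 0.14, SE 0.21, edgeR adjusted p = 0.890), with 2-DG replicate 3 below and the other 2-DG libraries above all controls. Sdhd, with the smallest p of the complex, stood at 72.4, 61.1, 69.5, 73.1 and 63.5 CPM in the control libraries and 65.4, 76.3, 63.2 and 96.4 CPM in the 2-DG libraries (log2 fold change 0.15, SE 0.19, edgeR unadjusted p = 0.441, adjusted p = 0.869), and 2-DG replicates 2 and 4 were above the controls.

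Complex III, the cytochrome bc1 complex, passes electrons from ubiquinol to cytochrome c. All 9 nuclear members had log2 fold changes above 0, between 0.046 and 0.39, with a median of 0.14. That median was 0.0091 without 2-DG replicate 4, 0.22 without 2-DG replicate 1, 0.24 without 2-DG replicate 3, 0.25 without control replicate 2 and 0.070 without control replicate 3. Uqcrb (ENSMUSG00000021520, chromosome 13, 66900617 to 66905378, minus strand), a small subunit beside the quinone site, stood at 64.9, 73.5, 62.1, 68.3 and 64.6 CPM in the control libraries and 79.0, 89.6, 87.8 and 93.7 CPM in the 2-DG libraries. The groups did not overlap, the lowest 2-DG library (replicate 1) lying above the highest control (replicate 2). The means were 66.7 ± 4.42 CPM (SD, n = 5) in control and 87.5 ± 6.17 CPM (SD, n = 4) in 2-DG explants (log2 fold change 0.39, SE 0.16, edgeR unadjusted p = 0.0324, adjusted p = 0.656). The redox subunits Cyc1 (cytochrome c1) and Uqcrfs1 (the Rieske iron-sulfur protein) showed less difference. Cyc1 stood at 99.0, 121, 78.2, 83.1 and 73.0 CPM in the control libraries and 104, 105, 83.4 and 104 CPM in the 2-DG libraries (log2 fold change 0.12, SE 0.20, edgeR adjusted p = 0.904), and Uqcrfs1 at 49.2, 59.1, 47.7, 54.7 and 52.7 CPM in the control libraries and 45.5, 53.0, 47.6 and 71.4 CPM in the 2-DG libraries (log2 fold change 0.046, SE 0.19, edgeR adjusted p = 0.964). The 2 core proteins Uqcrc1 and Uqcrc2 stood at 125 ± 23.1 CPM (SD, n = 5) in control and 132 ± 12.8 CPM (SD, n = 4) in 2-DG explants, and at 128 ± 23.2 CPM (SD, n = 5) in control and 152 ± 6.27 CPM (SD, n = 4) in 2-DG explants (log2 fold change 0.073, SE 0.20, and 0.25, SE 0.19). Uqcrc2 had its 2 lowest values in control replicates 2 and 5, where Uqcrc1 had its highest control values. Uqcrq spanned the widest range of the complex within 2-DG explants, from 9.45 CPM in replicate 3 to 77.4 CPM in replicate 4, against 25.4 to 49.2 CPM in control, and it was named after its values were seen.

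**Figure D4:**
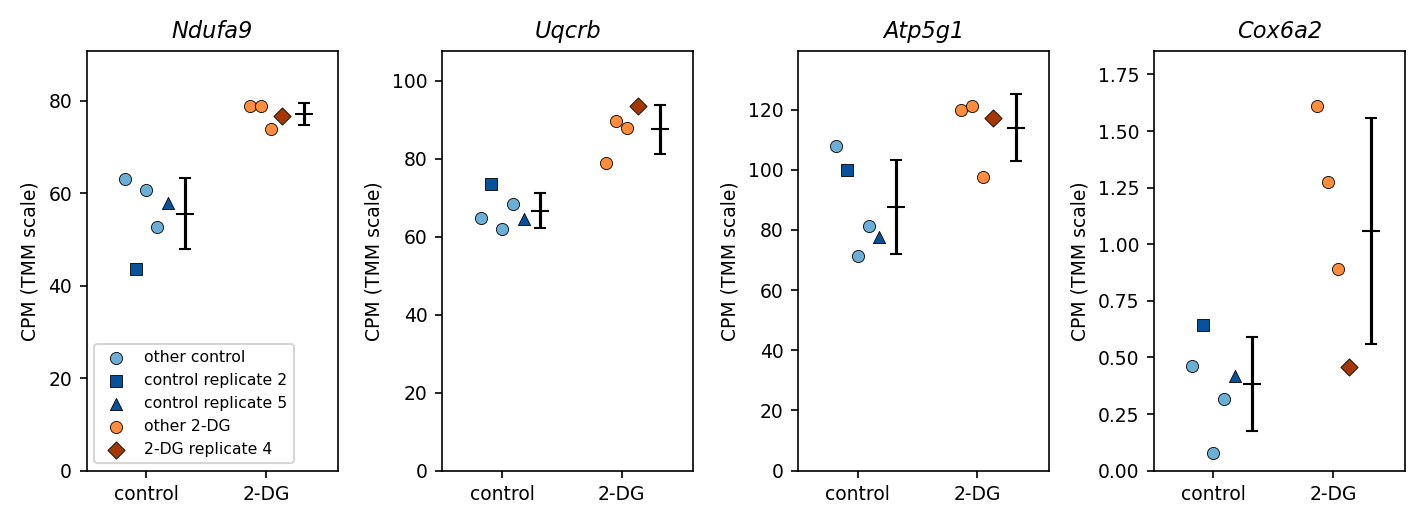
CPM of Ndufa9, Uqcrb, Atp5g1 and Cox6a2 in each library of the control (n = 5) and 2-DG (n = 4) groups, on axes that start at 0, with the mean and SD beside the points. The groups of Ndufa9 and Uqcrb do not overlap, those of Atp5g1 and Cox6a2 do, and all Cox6a2 values lie at or under 1.61 CPM.

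Promoter sequences of members are given for context, from RefSeq on GRCm38.p6 (250 bases before to 50 after the start). Of the 87 nuclear members 70 had an entry, Uqcrb and Cox6a2 not among them. Both records of Atp5o were given the same promoter, which held none of the motifs below. Nuclear OXPHOS genes are known targets of nuclear respiratory factor 1 (NRF1), of the ETS factor GABP (also called NRF2) and of YY1. The 6-letter core TGCGCA of the NRF1 site was found in 18 of 70 members (25.7%) and 8.06% of all 27025 promoters of the same length, searched on both strands. The full NRF1 site, GCGCA followed by TGCGC, was found in 5 members (7.14%, 0.977% of all), the ETS letters CCGGAAG in 16 (22.9%, 9.12% of all) and the YY1 letters AAGATGGC in 9 (12.9%, 2.88% of all). The core and the full NRF1 site can overlap each other. The promoter of Ndufa9 is shown as that of the member with the smallest p, that of Sdhd as that of the smallest p in complex II, and those of Uqcrc1 and Cox6a1 as examples with the full NRF1 site, chosen after the search. Capitals mark these 4 motifs on either strand.
Ndufa9 (chr6:126849095-126849394, minus strand): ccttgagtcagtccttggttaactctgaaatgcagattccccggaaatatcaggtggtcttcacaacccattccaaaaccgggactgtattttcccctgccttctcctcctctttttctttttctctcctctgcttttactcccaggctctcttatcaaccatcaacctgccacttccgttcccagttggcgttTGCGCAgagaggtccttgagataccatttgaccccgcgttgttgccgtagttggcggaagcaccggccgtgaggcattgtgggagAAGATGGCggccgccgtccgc
Sdhd (chr9:50603800-50604099, minus strand): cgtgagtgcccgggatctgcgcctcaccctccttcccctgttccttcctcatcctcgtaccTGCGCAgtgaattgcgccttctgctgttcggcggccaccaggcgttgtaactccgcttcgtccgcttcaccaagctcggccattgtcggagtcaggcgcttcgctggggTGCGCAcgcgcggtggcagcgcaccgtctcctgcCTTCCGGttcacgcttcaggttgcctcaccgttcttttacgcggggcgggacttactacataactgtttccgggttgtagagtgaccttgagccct
Uqcrc1 (chr9:108936398-108936697, plus strand): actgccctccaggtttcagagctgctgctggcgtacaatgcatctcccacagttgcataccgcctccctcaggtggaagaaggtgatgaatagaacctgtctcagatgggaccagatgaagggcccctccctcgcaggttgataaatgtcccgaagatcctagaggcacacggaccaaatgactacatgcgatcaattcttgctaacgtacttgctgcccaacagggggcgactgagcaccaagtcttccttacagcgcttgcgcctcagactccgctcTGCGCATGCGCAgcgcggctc
Cox6a1 (chr5:115348909-115349208, minus strand): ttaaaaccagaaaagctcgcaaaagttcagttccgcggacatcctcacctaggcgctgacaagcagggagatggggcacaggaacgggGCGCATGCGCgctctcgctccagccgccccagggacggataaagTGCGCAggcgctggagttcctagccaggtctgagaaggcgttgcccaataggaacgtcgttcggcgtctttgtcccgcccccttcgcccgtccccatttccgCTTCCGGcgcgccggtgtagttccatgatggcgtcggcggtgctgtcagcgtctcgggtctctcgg
These are matches of letters and were not tested as binding sites. Ndufa9 held an NRF1 core and a YY1 match, and Uqcrc1, with both NRF1 forms in 1 run of letters, had a log2 fold change of 0.073 against 0.47 for Ndufa9.

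Complex IV, cytochrome c oxidase, has several tissue-restricted isoforms. Of its 18 nuclear members 15 were tested, 12 above and 3 below 0, with a median of 0.13. The 10 widely used subunits had 9 above 0 and a median of 0.14. The median of the complex was −0.058 without 2-DG replicate 4, 0.21 without 2-DG replicate 1, and 0.058, 0.36, 0.0056 and −0.0032 without control replicates 1, 2, 3 and 4. Cox4i1, the ubiquitous form of subunit 4, stood at 121, 241, 80.6, 128 and 169.7 CPM in the control libraries and 126, 121, 156 and 261 CPM in the 2-DG libraries (log2 fold change 0.16, SE 0.35, edgeR adjusted p = 0.925). Control replicates 2 and 5 and 2-DG replicate 4 were its highest libraries, as in the mitochondrial messages. Its hypoxia-responsive partner Cox4i2, known from lung, stood at 7.15, 33.1, 6.11, 10.5 and 21.8 CPM in the control libraries and 4.50, 6.66, 11.4 and 26.8 CPM in the 2-DG libraries (log2 fold change −0.34, SE 0.63, edgeR adjusted p = 0.911) and was highest in the same 3 libraries. Per kilobase and over all libraries Cox4i1 had 212 CPM per kb and Cox4i2 19.5 CPM per kb.

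Cox6a2 (ENSMUSG00000030785, chromosome 7, 128205435 to 128206387, minus strand), the heart and skeletal muscle form of subunit 6a, had the largest log2 fold change of all members, at a very low level. Its estimated counts were 12, 9, 1, 12 and 13 in control and 19, 41, 48 and 16 in 2-DG libraries, which is 0.461, 0.644, 0.0763, 0.316 and 0.420 CPM in the control libraries and 1.61, 1.28, 0.889 and 0.458 CPM in the 2-DG libraries. 2-DG replicates 1 to 3 lay above all controls and 2-DG replicate 4 within them. The means were 0.384 ± 0.209 CPM (SD, n = 5) in control and 1.06 ± 0.498 CPM (SD, n = 4) in 2-DG explants (log2 fold change 1.42, SE 0.56, edgeR unadjusted p = 0.0270, adjusted p = 0.637). A count of 3, used here as the floor of detection, is 0.0579 to 0.265 CPM of the whole library, so control replicate 3 lay under it. The 8 skeletal muscle markers summed to 6.11 to 22.8 CPM in control and 4.89 to 13.9 CPM in 2-DG libraries, with 1 of the 8 at or under 3 counts in every library and groups that overlapped. The widely used Cox6a1 stood at 55.0, 89.6, 40.5, 59.7 and 68.4 CPM in the control libraries and 76.6, 71.2, 50.6 and 101 CPM in the 2-DG libraries (log2 fold change 0.26, SE 0.27, edgeR adjusted p = 0.846) and at 119 CPM per kb, against 1.01 CPM per kb for Cox6a2.

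In the other isoform families a widely used form was also far more abundant than the tissue-restricted form. Cox6b1 stood at 78.8 ± 14.3 CPM (SD, n = 5) in control and 94.3 ± 18.9 CPM (SD, n = 4) in 2-DG explants (log2 fold change 0.26, SE 0.21) with 149 CPM per kb. Cox6b2, known from testis, stood at 9.84, 19.2, 10.2, 7.75 and 10.6 CPM in the control libraries and 6.11, 7.12, 8.39 and 10.3 CPM in the 2-DG libraries (log2 fold change −0.53, SE 0.32, edgeR adjusted p = 0.767) with 20.0 CPM per kb, the largest negative log2 fold change of all members. All 4 of its 2-DG values lay under the control mean, but control replicates 1, 3 and 4 overlapped with them. The forms of subunit 7a differed more in level than between the groups. The liver-type Cox7a2 stood at 63.7 ± 12.8 CPM (SD, n = 5) in control and 75.3 ± 11.8 CPM (SD, n = 4) in 2-DG explants (log2 fold change 0.24, SE 0.20). The supercomplex factor Cox7a2l stood at 123 ± 49.0 CPM (SD, n = 5) in control and 130.2 ± 61.6 CPM (SD, n = 4) in 2-DG explants (log2 fold change 0.079, SE 0.36). The muscle form Cox7a1 stood at 0.423, 2.43, 0.382, 0.685 and 0.905 CPM in the control libraries and 0.764, 0.529, 1.87 and 1.03 CPM in the 2-DG libraries (log2 fold change 0.16, SE 0.62, edgeR adjusted p = 0.962), with the 2 highest values in control replicate 2 and 2-DG replicate 3. Of subunit 8, Cox8a stood at 84.8 ± 33.4 CPM (SD, n = 5) in control and 85.2 ± 23.7 CPM (SD, n = 4) in 2-DG explants (log2 fold change 0.0066, SE 0.30).

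Of the members too low to test, Cox8b, Cox8c and Cox7b2 were also tissue-restricted forms. The muscle form Cox8b had 0, 0, 0, 4 and 3 counts in control and 0, 2, 51 and 10 counts in 2-DG libraries, so that 1 library, 2-DG replicate 3, held most of its counts. That library also held the highest pigment epithelium marker sum, and the relation was not tested. The testis form Cox8c had 1 count in 1 control library and 0 in the other 8, and Cox7b2 had at most 4 counts in any library. The second record of Atp5o in the table held 0 counts in all 9 libraries, so this untested member is a duplicate name of a tested gene.

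**Figure D5:**
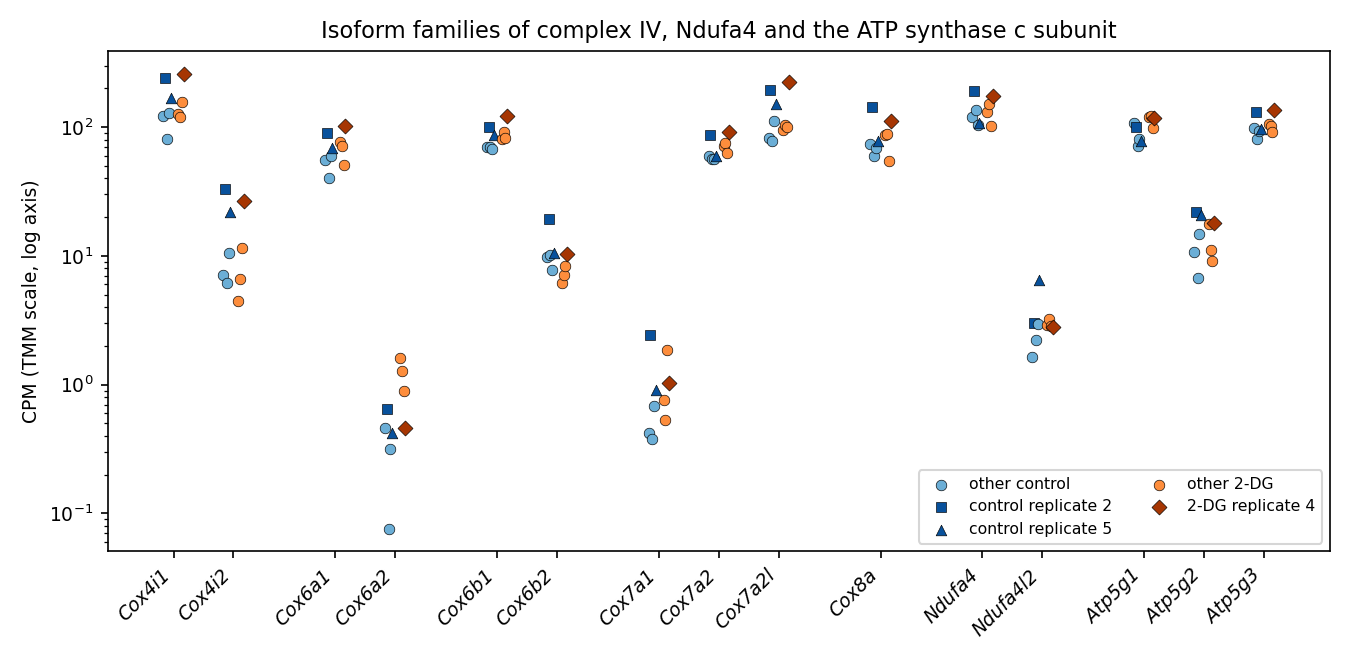
CPM on a log axis of the isoform families named in the text, 1 point per library, control to the left and 2-DG to the right of each gene. Cox4i2, Cox6a2, Cox6b2, Cox7a1, Ndufa4l2 and Atp5g2 lie below their partners in every library, and Cox6a2 has 3 of 4 2-DG libraries above all controls.

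Ndufa4, first described with complex I and now counted with complex IV, stood at 131 ± 35.9 CPM (SD, n = 5) in control and 139 ± 30.3 CPM (SD, n = 4) in 2-DG explants (log2 fold change 0.083, SE 0.25) with 237 CPM per kb. Its paralog Ndufa4l2, a hypoxia-induced gene, stood at 1.65, 3.01, 2.21, 2.98 and 6.46 CPM in the control libraries and 2.89, 3.24, 2.87 and 2.80 CPM in the 2-DG libraries (log2 fold change −0.15, SE 0.42, edgeR adjusted p = 0.947) with 3.42 CPM per kb. Control replicate 5 alone lay well above the rest, and the 2-DG libraries were close to each other.

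Complex V uses the proton gradient to make ATP. Of its 17 tested members 16 had a log2 fold change above 0, with a range of −0.10 to 0.38 and a median of 0.20, which was 0.065 without 2-DG replicate 4 and 0.11 without control replicate 4. By part of the enzyme, the median was 0.20 in the 5 subunits of the catalytic head, 0.21 in the 4 of the peripheral stalk, 0.12 in the 3 c-ring genes and 0.10 in the 5 small membrane subunits. Per kilobase Atp5b, the catalytic beta subunit, was the most abundant nuclear member, with 473 CPM per kb. It stood at 723, 1159.8, 642, 697 and 722 CPM in the control libraries and 834, 922, 696 and 1171 CPM in the 2-DG libraries (log2 fold change 0.20, SE 0.27, edgeR adjusted p = 0.882), and control replicate 2 and 2-DG replicate 4 were nearly equal at the top. Atp5a1, the alpha subunit, stood at 566, 443, 458, 492 and 412 CPM in the control libraries and 582, 576, 496 and 596 CPM in the 2-DG libraries (log2 fold change 0.25, SE 0.21, edgeR adjusted p = 0.820). There 2-DG replicates 1, 2 and 4 lay above all controls and replicate 3 among them. Atpif1, an inhibitor of the enzyme whose symbol the rule does not take, stood at 35.5 ± 14.6 CPM (SD, n = 5) in control and 35.9 ± 1.37 CPM (SD, n = 4) in 2-DG explants.

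The c-ring, the rotor through which protons pass, is made from 3 genes that encode the same mature protein. Atp5g1 (ENSMUSG00000006057, chromosome 11, 96068852 to 96075670, minus strand) had the smallest p of complex V. It stood at 108, 100.02, 71.5, 81.2 and 77.7 CPM in the control libraries and 119.9, 121, 97.5 and 117 CPM in the 2-DG libraries (log2 fold change 0.38, SE 0.19, edgeR unadjusted p = 0.0746, adjusted p = 0.714). In this gene 2-DG replicates 1, 2 and 4 lay above all controls, whereas replicate 3 lay under control replicates 1 and 2. Atp5g3 stood at 99.0, 130.2, 80.8, 92.7 and 97.3 CPM in the control libraries and 106, 102, 91.1 and 136 CPM in the 2-DG libraries (log2 fold change 0.12, SE 0.21, edgeR adjusted p = 0.905), with control replicate 2 and 2-DG replicate 4 the highest of their groups. Atp5g2 stood at 10.7, 22.1, 6.72, 14.8 and 20.6 CPM in the control libraries and 17.6, 11.1, 9.10 and 18.1 CPM in the 2-DG libraries (log2 fold change −0.10, SE 0.38, edgeR adjusted p = 0.960), but a transcribed processed pseudogene of near-identical sequence, Gm10175, held 89.3% of the counts of the pair. The sum of both was 122 ± 32.4 CPM (SD, n = 5) in control and 139 ± 38.2 CPM (SD, n = 4) in 2-DG explants. Whether the low level of Atp5g2 reflects how reads were divided between the pair was not tested. Of 86 nuclear members searched, 22 shared sequence with at least 1 other gene, and in 3 (Ndufb4, Atp5g2 and Atp5l, with 12.5%) the other genes held over 5% of the counts.

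By library, the median log2 deviation of the 83 tested nuclear members from their means over libraries was −0.13, 0.41, −0.33, −0.20 and −0.060 in the control libraries and 0.016, 0.040, −0.16 and 0.43 in the 2-DG libraries. Control replicate 2 and 2-DG replicate 4 were the highest of their groups by a margin, and control replicate 3 was the lowest of all. In control replicate 2 the median of complex II was 0.011, whereas that of complex IV was 0.71. Spearman's rho of the deviation with transcript length across these 83 genes, which are not independent replicates, was −0.31, −0.17 and −0.31 in control replicates 2 and 5 and 2-DG replicate 4 and 0.053 to 0.32 in the other 6. The median log2 fold change was 0.16 in the 41 members with transcripts below the median length and 0.13 in the 42 others.

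The nuclear median of 0.14 depended on the same libraries. It was 0.0085 without 2-DG replicate 4, with 42 of 83 above 0, and 0.26 without control replicate 2, with 79 of 83 above 0 and 11 members at an unadjusted p under 0.05 (8.99% of all genes in that fit). Without both it was 0.13, with 62 of 83 above 0. In that fit 5 members (Atp5h, Cox6a2, Ndufa9, Ndufb8 and Uqcrb) had an unadjusted p under 0.05 against 15.7% of all genes. There 0 members passed the adjusted threshold, against 177 of 21331 genes. The split of nuclear members above and below 0 was 68 to 15 on the TMM scale, 52 to 31 with upper-quartile scaling and 59 to 24 with library size only. The median over all genes moved as well, at −0.0089, −0.089 and −0.065 in these fits. Above it the nuclear median lay by 0.149, 0.137 and 0.142. The pair left out was chosen after the data were seen. In the fit without both libraries all 13 mitochondrial members were below 0, with a median of −0.52, while the median over the nuclear members stayed positive. Control replicate 5 stayed in that fit with a mitochondrial share of 9.24%, beside 3.46, 3.57 and 6.21% in the other controls kept. The 2-DG libraries kept held 3.21, 3.41 and 5.74%. A shift with 2-DG cannot be told apart here from the choice of libraries left out.

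Other genes of mitochondrial function were read from 10 fixed lists, and none had a member past the adjusted threshold. The lists were read in the main fit only. How far their counts and medians rest on 2-DG replicate 4, as the nuclear OXPHOS median did, was not tested. Beside the counts below stand 49.2% of all genes tested with a log2 fold change above 0 and 7.25% at an unadjusted p under 0.05 (2.42% higher). The tricarboxylic acid cycle enzymes had 13 of 14 above 0 and a median of 0.22, with 1 of 14 at an unadjusted p under 0.05, a share near that of all genes. It was Suclg2, the GTP-forming succinyl-CoA ligase subunit (log2 fold change 0.74, SE 0.24, edgeR unadjusted p = 0.0120, adjusted p = 0.570). The list of electron carriers and exchangers also held Ckmt1 and Ndufab1, a symbol that the rule for members does not take. It had 11 of 13 above 0 and a median of 0.27, with 2 of 13 at an unadjusted p under 0.05. These were Etfdh, which feeds electrons from fatty acid oxidation to ubiquinone (log2 fold change 0.56, SE 0.21, edgeR unadjusted p = 0.0253, adjusted p = 0.634), and the outer membrane channel Vdac3 (log2 fold change 0.44, SE 0.18, edgeR unadjusted p = 0.0312, adjusted p = 0.656). Cycs, cytochrome c itself, had a log2 fold change of −0.055 (SE 0.20). The mitochondrial ribosomal proteins had 59 of 78 above 0 and a median of 0.14, with 3 of 78 (Mrps5, Mrpl30 and Mrpl37, named after their values were seen) at an unadjusted p under 0.05.

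Assembly factors and regulators had medians of either sign. Assembly factors of complex I had 5 of 15 above 0 and a median of −0.055, those of complex II 0 of 4 above 0 and a median of −0.22, those of complex III 3 of 6 above 0 and a median of −0.076, those of complex IV 13 of 19 above 0 and a median of 0.060 and those of complex V 2 of 3 above 0 and a median of 0.29, all with 0 at an unadjusted p under 0.05. Factors that copy or transcribe mitochondrial DNA or act on its RNA had 15 of 25 above 0 and a median of 0.028. Among them Tfam, which packages mitochondrial DNA, had a log2 fold change of 0.19 (SE 0.20). Regulators of mitochondrial biogenesis had 6 of 11 above 0 and a median of 0.018, with 1 of 11 at an unadjusted p under 0.05, the coactivator Pprc1 (log2 fold change 0.60, SE 0.26, edgeR unadjusted p = 0.0402, adjusted p = 0.677), whereas its relative Ppargc1a had −0.13 (SE 0.36). These medians are descriptions on the TMM scale, and no difference between lists was tested.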

How the data were processed

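Total RNA from explants was made into stranded libraries with a low-input kit (4 ng RNA, 13 PCR cycles) and sequenced as 101-base pairs. The deposited values were estimated counts per gene and transcript, made by the authors with kallisto on GRCm38 per the labels, with no version given and no statement of how strand was set. The authors' own table of fold changes and p-values was not used, nor were their normalized CPM. The shared protocol text in the labels names 2-DG for all samples, so groups were taken from the treatment label. Gene counts were rounded, filtered with filterByExpr, scaled by TMM and fitted with edgeR 4.0.16 (glmQLFit and glmQLFTest, group as the only term, two-sided) over 21049 genes of 9 libraries, with Benjamini-Hochberg adjustment over all of them and a threshold of 0.05. CPM are on the TMM scale, and CPM per kb divides by the transcript length. Log2 deviations used a prior of 0.5 CPM.

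Alternatives were DESeq2 1.42.0 size factors and Wald test, upper-quartile scaling, library size only, scaling outside the mitochondrial chromosome, no filter, limma 3.58.1 voom with quality weights, summed transcript counts, a replicate block and leaving out each library. Coordinates are from GENCODE M21, and copies were sought with BLAST+ 2.17.0 (95% identity over at least 200 bases). The tests were checked on simulated counts. Members, lists and named genes were chosen with earlier results of these data known. Named with values were the member with the smallest p in each complex, every member with an unadjusted p under 0.05, and fixed members of each complex and isoform family. A member is not reported here by name.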

Additional observations from a re-analysis of the deposited data

Results flagged for a closer look

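Of 74 groups of values examined (named genes and both shares of counts in each group), 10 held 1 library far from the rest of its group. For independent groups chance gives about 1 in 20. These groups come from the same 9 libraries and are not independent, so no excess over chance can be read from the count. Control replicate 2 was the library in 6 of them, each time as the highest control. It held 19.2 CPM of Cox6b2, against 7.75 to 10.6 CPM in the other controls. For Cox7a1 it held 2.43 CPM, against 0.382 to 0.905 CPM. For Cox7a2 it held 86.3 CPM, against 56.1 to 59.8 CPM. For Cox8a it held 143 CPM, against 59.6 to 78.2 CPM. For Ndufv1 it held 144 CPM, against 88.2 to 94.5 CPM. For Atp5b it held 1159.8 CPM, against 642 to 723 CPM. 2-DG replicate 4 was the highest 2-DG library for mt-Atp8 (1063 CPM, against 218 to 277 CPM) and for Cox7a2l (222 CPM, against 95.3 to 103 CPM). 2-DG replicate 3 was the lowest of its group for Cyc1 (83.4 CPM, against 104 to 105 CPM), and control replicate 5 the highest of its group for Ndufa4l2 (6.46 CPM, against 1.65 to 3.01 CPM). Of these libraries, control replicates 2 and 5 and 2-DG replicate 4 stood apart in rod and bipolar cell markers and in transcript length, and 2-DG replicate 3 in pigment epithelium markers, and the part of these in the values was not tested.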

How the results depend on the processing

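The count of 0 members past the adjusted threshold held in every fit of edgeR and in DESeq2, and became 2 with limma-voom. Over all genes, DESeq2 called 257 of 37313 and limma-voom 1222 of 21049. The edgeR fits called genes only without control replicate 2 (16 of 20632), without 2-DG replicate 4 (2 of 21142) and without both (177 of 21331). The count of 3 at an unadjusted p under 0.05 became 1 with library size as the only scaling, 16 with limma-voom (26% of all genes there) and 5 without both control replicate 2 and 2-DG replicate 4 (chosen after seeing the data), and ranged from 1 to 11 when single libraries were left out. The nuclear medians of all 5 complexes stayed above 0 under every scaling. Medians moved by less than the spread between libraries in every alternative, which for the mitochondrial members was 0.92 on the log2 scale. The difference in mitochondrial percent of counts (2-DG minus control, −0.230) ranged from −2.37 without 2-DG replicate 4 to 0.787 without 2-DG replicate 1. Of 34 named genes 15 kept their sign in every alternative, Ndufa9, Uqcrb, Cox6a2 and Atp5g1 among them. The median over all genes tested was −0.089 with upper-quartile scaling and −0.065 with library size only, against −0.0089 on the TMM scale. Upper-quartile scaling turned the sign of mt-Co1 (−0.052), mt-Nd4 (−0.062), Cox7a2l (−0.028), Cox8a (−0.097), Ndufa4 (−0.011), Ndufv1 (−0.012), Uqcrc1 (−0.019) and Uqcrfs1 (−0.042). Library size as the only scaling turned the sign of mt-Co1 (−0.047), mt-Nd4 (−0.070), mt-Cytb (−0.0030), Cox7a2l (−0.0093), Cox8a (−0.055) and Uqcrfs1 (−0.030). Summing transcript counts per gene turned the sign of Cox8a (−0.0048). The replicate block turned the sign of Atp5g2 (0.12) and Ndufa4l2 (0.29). Leaving out both control replicate 2 and 2-DG replicate 4 turned the sign of Sdhd (−0.030), mt-Co1 (−0.22), mt-Nd4 (−0.38), mt-Cytb (−0.52), Cox7a2l (−0.091), Sdhb (−0.051) and Uqcrfs1 (−0.071). Limma-voom with quality weights turned the sign of Sdhd (−0.0082), mt-Co1 (−0.24), mt-Nd4 (−0.41), mt-Cytb (−0.53), Cox7a2l (−0.0023), Atp5g2 (0.072), Ndufa4l2 (0.13) and Uqcrfs1 (−0.072). When single libraries, or both of control replicate 2 and 2-DG replicate 4, were left out, the sign changed at least once, with these lowest and highest log2 fold changes, for Sdhd (−0.030 to 0.23), mt-Co1 (−0.31 to 0.20), mt-Nd4 (−0.62 to 0.30), mt-Cytb (−0.78 to 0.40), Cox7a1 (−0.29 to 0.82), Cox7a2l (−0.31 to 0.30), Cox8a (−0.15 to 0.28), mt-Atp8 (−1.10 to 0.027), Cox4i2 (−1.05 to 0.12), Atp5g2 (−0.29 to 0.075), Ndufa4 (−0.038 to 0.26), Ndufv1 (−0.0083 to 0.23), Ndufa4l2 (−0.32 to 0.25), mt-Nd6 (−0.42 to 0.087), Cox4i1 (−0.14 to 0.41), Atp5g3 (−0.0017 to 0.23), Sdhb (−0.072 to 0.28) and Uqcrfs1 (−0.11 to 0.13). The causes were not tested.

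Libraries of both groups carry replicate numbers 1 to 4. Deviations from the group means correlated between equal numbers by 0.45, −0.15, 0.10 and 0.21, so the numbers were not taken as pairs. With the replicate block 0 members passed the threshold, as did 0 of all 21049 genes. In that fit 2 members (Cox6a2 and Ndufa9) had an unadjusted p under 0.05 against 6.42% of all genes, and the nuclear and mitochondrial medians were 0.14 and 0.061. Precision limits single genes. In simulated counts with the common dispersion of 0.265 over 21049 genes, 1% of 2-fold and 43% of 4-fold changes passed the threshold. With a dispersion of 0.04, 90% and 100% did. Each simulation gave all genes 1 dispersion. Standard errors ran from 0.16 to 0.63 in the tested nuclear members and from 0.28 to 0.75 in the mitochondrial members. Neither simulation therefore gives the share that would pass for a given member. The log2 fold changes of all tested members but Cox6a2 were under 1 in size.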

Other observations

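Within complex I, the nuclear members with the next smallest p after Ndufa9 were Ndufb8, at 56.5, 73.9, 46.1, 50.4 and 50.3 CPM in the control libraries and 67.4, 70.9, 65.1 and 78.4 CPM in the 2-DG libraries (edgeR unadjusted p = 0.0990, adjusted p = 0.742), and Ndufs4, at 40.6, 35.9, 33.8, 42.7 and 40.5 CPM in the control libraries and 52.3, 47.9, 35.4 and 52.1 CPM in the 2-DG libraries (edgeR unadjusted p = 0.170, adjusted p = 0.785). Ndufb8 is a supernumerary subunit of the membrane arm, and Ndufs4 one of the peripheral arm whose loss causes Leigh-like disease in mice. Both were named after their values were seen. In Ndufb8 control replicate 2 lay among the 2-DG libraries and the other controls below all of them. In Ndufs4 2-DG replicate 3 lay among the controls and the other 2-DG libraries above all of them.

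Some nuclear members kept a narrow range over all 9 libraries and others did not. Ndufv2 stood between 65.4 and 80.8 CPM, Atp5c1 between 106 and 149 CPM and Ndufa10 between 81.3 and 119 CPM, whereas Uqcrh stood between 69.7 and 171 CPM and Ndufs7 between 24.9 and 85.6 CPM. These genes were chosen after their values were seen.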
